A study of Mus musculus with 12 samples.

Results

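The genes described here are 36 members of the p53 pathway and the DNA damage response: Trp53, the regulators of its protein, direct target genes and the damage kinases upstream. They were taken by gene symbol from a list drawn up for this work with earlier results of these data known. Counts of members called are therefore not an independent test of the list. All 36 were found among the 24015 gene rows and tested. The data are RNA counts from 12 libraries of mouse embryoid bodies, the aggregates that embryonic stem cells form as they differentiate in suspension. The 4 groups of 3 libraries were Trim33-deficient bodies on day 2.5, control bodies on day 2.5, Trim33-deficient bodies on day 2 and control bodies on day 2. All groups came from outbred stem cell lines, at passages 8 to 10, that carried floxed Trim33 on both chromosomes and the UbcCreERT2 transgene, a Cre recombinase driven by the ubiquitin C promoter that tamoxifen switches on. Before differentiation the lines grew feeder-free in medium with LIF and 2i, and 4OH-Tamoxifen was given on day 1 to remove Trim33. The labels call the control genotype wildtype. The labels do not say if control bodies also received the drug, and if they did not, the drug, Cre activity and the loss of Trim33 cannot be told apart.

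The p53 protein is a transcription factor that is held low by Mdm2, a ubiquitin ligase, and by Mdm4, a relative of Mdm2 that masks its activation domain. DNA damage activates the kinases Atm and Atr and their effectors Chek2 and Chek1, which modify p53 and Mdm2 so that p53 protein accumulates, largely without a change in its mRNA. Its targets arrest growth, promote cell death, repair DNA and adjust metabolism, and Mdm2 is itself a target, which closes a feedback loop. Embryonic stem cells hold much p53 protein, and it is known there for limiting growth and favouring differentiation.

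Libraries held 10066338 to 16529627 counts in genes. Trim33 stood at 58.2 ± 4.23 CPM (TMM-scaled CPM, a library's counts relative to its total) in Trim33-deficient bodies and 249.6 ± 12.8 CPM in control bodies on day 2.5, and at 66.0 ± 4.87 and 271 ± 8.55 CPM on day 2 (SD, n = 3 each), so every library fitted its label. All 8 markers of pluripotent and epiblast cells had counts, and their summed level was 3576 to 4263 CPM in Trim33-deficient and 5064 to 5690.2 CPM in control bodies on day 2.5. Most of that difference was Dnmt3b, at 1634 to 2131 CPM in Trim33-deficient and 2820.2 to 3443 CPM in control bodies. Nanog was also lower in Trim33-deficient bodies (68.6 to 81.5 against 163 to 209 CPM), without overlap. So were Otx2 (51.4 to 101 against 156 to 227 CPM) and Fgf5 (85.5 to 101 against 135 to 149 CPM). Sox2 was higher in Trim33-deficient bodies (194 to 224 against 161 to 164 CPM), and the ranges of Pou5f1, Sall4 and Utf1 overlapped. Fibroblast markers summed to 18.5 to 21.7 CPM in Trim33-deficient and 33.6 to 40.6 CPM in control bodies on that day, and endoderm markers to 26.5 to 30.3 CPM in Trim33-deficient and 30.8 to 41.0 CPM in control bodies. Thy1 (6.11 to 9.04 against 18.9 to 25.7 CPM) and Dab2 (16.7 to 19.6 against 22.8 to 32.3 CPM) made up most of the differences in these sums. Col1a1 (3.85 to 4.68 against 6.21 to 6.48 CPM) and Col1a2 (4.76 to 5.45 against 6.10 to 7.55 CPM) were also lower, without overlap. Col3a1 (2.18 to 2.85 against 0.799 to 1.70 CPM) was higher in all 3 Trim33-deficient libraries. Also higher in all 3 were Gata6 (1.02 to 1.32 against 0.393 to 0.566 CPM) and Sox17 (0.731 to 1.25 against 0.189 to 0.393 CPM). Postn was at 0 in the 6 day 2.5 libraries, and Afp and Ttr in 5 of the 6. Rn45s, the precursor of ribosomal RNA, made up 7.87% of the counts of Trim33-deficient day 2 replicate 1 and 11.9% of control day 2.5 replicate 2, against 0.609 to 1.67% of the other libraries. Hypoxia genes lay 0.44 above the mean of all libraries (log2) in control day 2.5 replicate 2 and 0.69 above it in control day 2 replicate 2. Their summed level on day 2.5 was 2032 to 2279.6 CPM in Trim33-deficient and 2483 to 3039 CPM in control bodies, without overlap. In each group 1 library held the lowest value of most members: Trim33-deficient day 2.5 replicate 3 in 24 of 36, control day 2.5 replicate 2 in 21, Trim33-deficient day 2 replicate 2 in 20 and control day 2 replicate 2 in 26. These libraries were lowest in 34.9%, 37.6%, 30.5% and 39.3% of all genes tested, in the same order. What the marker and hypoxia levels contribute to the results was not tested. Some counts, not all, are also given without the 2 libraries rich in Rn45s, or without these and control day 2 replicate 2, the 3 libraries that stood apart. In bulk RNA, a change in the share of cells that express a gene and a change in RNA per cell cannot be told apart.

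**Figure D1:**
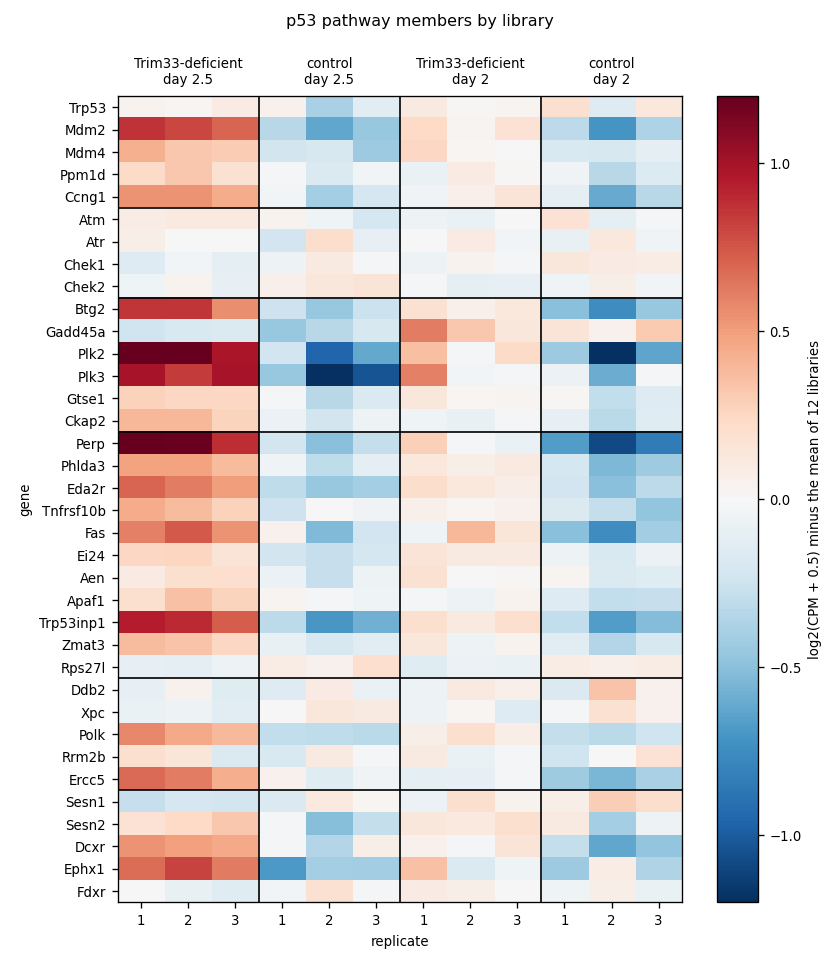
Each row is a member and each column a library, grouped by genotype and day. Colour is log2(CPM + 0.5) minus the mean of the 12 libraries, limited to -1.2 and 1.2; black lines separate groups and roles. Most rows are red in the 3 Trim33-deficient day 2.5 libraries and blue in control libraries of both days, while kinases and several repair genes stay pale.

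On day 2.5 most p53 targets were higher in Trim33-deficient bodies. Of the 36 members 25 rose, 2 fell and 9 did not pass (edgeR quasi-likelihood test, adjusted p under 0.05). The 25 include Fas, which passed the expression filter through Trim33-deficient libraries and not through control libraries alone. Among all 14356 genes tested 22.0% rose and 20.7% fell, 42.8% in either direction. The median log2 fold change of the members was 0.47, against -0.01 for all genes. Of all 36 members, 25 had their 3 Trim33-deficient libraries above the 3 control libraries and 4 had them below. Among all genes tested the shares were 26.7% and 26.3%. The 25 are the same members that rose, so this separation adds no independent support to their calls. Mdm2, Btg2, Plk2, Plk3, Perp, Eda2r, Fas, Trp53inp1 and Ephx1 changed by the largest amounts, with log2 fold changes of 1.00 to 1.81. Without both libraries rich in Rn45s 25 members rose, with Atr in the place of Atm. Without all 3 libraries that stood apart 26 rose, and the added member was Atr.

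Trp53 mRNA itself did not pass. It stood at 297, 293 and 308 CPM in Trim33-deficient libraries on day 2.5, against 300.0, 220.0 and 263 CPM in control libraries. The ranges overlapped, because control replicate 1 lay as high as the Trim33-deficient libraries (log2 fold change 0.19 ± 0.10 SE, adjusted p = 0.147). Without control day 2.5 replicate 1 the difference was 0.30 and passed (adjusted p = 0.0188). Trp53 also passed when replicate number was added to the model. A pseudogene copy, Trp53-ps, is annotated in the mouse genome, and how reads shared with it were counted is not stated.

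The regulators of p53 protein were higher. Mdm2 had 455, 435 and 405 CPM in Trim33-deficient libraries and 197, 161 and 181 CPM in control libraries on day 2.5. The groups were far apart, and Mdm2 rose 2.40-fold (log2 1.26 ± 0.10, adjusted p = 1.56e-06). Mdm4 had 116, 107 and 106 CPM in Trim33-deficient libraries, against 73.4, 75.0 and 63.4 CPM in control libraries. It rose less than Mdm2, 1.56-fold (adjusted p = 9.03e-06), and as a gene with an annotated copy, Mdm4-ps, its counts carry the same doubt as those of Trp53. Ccng1, cyclin G1, a p53 target that brings a phosphatase to Mdm2, had 761, 758 and 711 CPM in Trim33-deficient libraries and 510.0, 394 and 456 CPM in control libraries (log2 0.71 ± 0.12, adjusted p = 0.000491). Ppm1d, the phosphatase that reverses signalling by the damage kinases, had 52.4, 56.1 and 50.6 CPM in Trim33-deficient libraries, against 44.0, 39.6 and 43.6 CPM in control libraries. Its rise was the smallest of the 4 regulators (log2 0.32 ± 0.08, adjusted p = 0.00436).

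The damage kinases moved little. Atm, which responds to double-strand breaks, had 188, 191 and 191 CPM in Trim33-deficient libraries and 182, 170.4 and 152 CPM in control libraries on day 2.5. It passed narrowly (log2 0.18 ± 0.07, adjusted p = 0.0458) and lost its call under 12 of 21 alternatives. Chek2, the effector of Atm, had 90.7, 96.6 and 87.7 CPM in Trim33-deficient libraries, against 98.4, 104 and 105 CPM in control libraries. It fell by 0.16 on the log2 scale (adjusted p = 0.0296), a call lost under 6 of 21 alternatives. Atr, which responds to stalled replication, had 114, 109 and 109.6 CPM in Trim33-deficient libraries and 92.9, 126 and 102 CPM in control libraries. Its effector Chek1 had 90.3, 98.5 and 92.8 CPM in Trim33-deficient libraries, against 96.3, 108 and 98.9 CPM in control libraries. Neither Atr nor Chek1 passed (log2 0.06 ± 0.09 and -0.11 ± 0.06), though Atr passed without control day 2.5 replicate 2 (log2 0.19, adjusted p = 0.0353). Atr also passed without both libraries rich in Rn45s and without all 3 libraries that stood apart.

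Of 6 genes of growth arrest and mitosis 5 rose on day 2.5, where 22.0% of all genes rose. Roles, like members, were set with earlier results of these data known, so counts by role are no independent test. Plk3, a stress-responsive polo-like kinase, had 107, 96.6 and 107 CPM in Trim33-deficient libraries and 39.2, 23.3 and 26.0 CPM in control libraries. Its rise, 3.49-fold, was the largest among the members (log2 1.81 ± 0.24, adjusted p = 0.000247). The exons of Plk3 overlap those of Tctex1d4 on the other strand. With no strand setting stated, how reads in the overlap were counted is not known. Plk2, a related kinase and p53 target, had 271, 259 and 216 CPM in Trim33-deficient libraries, against 93.5, 56.6 and 71.6 CPM in control libraries. It rose 3.35-fold (log2 1.74 ± 0.23, adjusted p = 0.000292). Btg2, an antiproliferative co-regulator, had 143, 143 and 116 CPM in Trim33-deficient libraries and 66.4, 57.4 and 65.8 CPM in control libraries (log2 1.08 ± 0.09, adjusted p = 9.54e-07).

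The mitotic members rose by smaller amounts. Ckap2, a spindle protein, had 163, 163 and 149 CPM in Trim33-deficient libraries, against 118, 106 and 119 CPM in control libraries (log2 0.47 ± 0.06, adjusted p = 3.08e-05). Gtse1, a microtubule protein that binds p53 in G2 phase, had 331, 325 and 325 CPM in Trim33-deficient libraries and 269, 216 and 241 CPM in control libraries (log2 0.43 ± 0.08, adjusted p = 0.000491). In both genes the groups did not overlap. Gadd45a, which links DNA damage to growth arrest, was the exception of this role at 28.9, 30.1 and 30.3 CPM in Trim33-deficient libraries, against 24.9, 27.1 and 29.9 CPM in control libraries (log2 0.13 ± 0.11, adjusted p = 0.378).

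Of 11 genes tied to cell death 10 rose, Fas included, and 1 fell on day 2.5, where 22.0% and 20.7% of all genes did. Perp, a membrane protein of cell junctions and apoptosis, had 87.1, 78.4 and 63.8 CPM in Trim33-deficient libraries and 29.2, 24.0 and 27.9 CPM in control libraries. It rose 2.81-fold (log2 1.49 ± 0.13, adjusted p = 2.16e-06). Trp53inp1, a nuclear protein that promotes p53 activity and autophagy, had 1282, 1239.9 and 1101 CPM in Trim33-deficient libraries, against 537, 410.1 and 446 CPM in control libraries. It rose 2.60-fold (log2 1.38 ± 0.11, adjusted p = 1.74e-06). Eda2r, the receptor of ectodysplasin A2, had 138, 130.0 and 121 CPM in Trim33-deficient libraries and 68.5, 61.9 and 63.7 CPM in control libraries. The spread within each group was small, and Eda2r had the smallest adjusted p of all members, 8.97e-08 (log2 1.00 ± 0.07).

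The receptors Fas and Tnfrsf10b, both of which signal cell death, also rose. Fas was at the low end of detection, with 1.96, 2.19 and 1.84 CPM in Trim33-deficient libraries and 1.18, 0.621 and 0.881 CPM in control libraries, where 3 counts equal 0.178 to 0.266 CPM on day 2.5. Its log2 fold change was 1.12 ± 0.27 (adjusted p = 0.00354). Control libraries held 18, 7 and 14 counts of Fas on day 2.5 and 8, 6 and 9 on day 2. Fas thus passed the expression filter through the Trim33-deficient libraries, where it is higher, and not through control libraries alone. Tnfrsf10b averaged 67.9 ± 3.87 CPM in Trim33-deficient and 49.2 ± 4.54 CPM in control bodies (SD, n = 3 each), a smaller rise of 0.47 ± 0.08. Phlda3, which competes with Akt for the membrane, had 133, 134 and 124 CPM in Trim33-deficient libraries, against 92.6, 77.1 and 88.1 CPM in control libraries (log2 0.60 ± 0.08, adjusted p = 2.22e-05). Ei24, a protein of the endoplasmic reticulum, had 208, 209 and 194 CPM in Trim33-deficient libraries and 150.2, 145 and 151 CPM in control libraries (log2 0.45 ± 0.05, adjusted p = 3.98e-06). Zmat3, an RNA-binding zinc finger protein, rose by 0.46 ± 0.06, the nuclease Aen by 0.30 ± 0.07 and Apaf1, the scaffold of the apoptosome, by 0.29 ± 0.05. Rps27l, a ribosomal protein relative, went the other way, with 117, 116 and 121 CPM in Trim33-deficient libraries, against 133, 129.7 and 144 CPM in control libraries. It fell by 0.20 on the log2 scale (adjusted p = 0.00341), with no overlap between the groups.

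DNA repair genes were split. Polk, a polymerase that copies past damaged bases, had 53.1, 48.9 and 46.4 CPM in Trim33-deficient libraries and 28.9, 28.6 and 28.1 CPM in control libraries on day 2.5 (log2 0.79 ± 0.07, adjusted p = 7.81e-07). Ercc5, an endonuclease of nucleotide excision repair, had 82.0, 78.1 and 68.9 CPM in Trim33-deficient libraries, against 52.7, 46.0 and 49.5 CPM in control libraries (log2 0.62 ± 0.07, adjusted p = 1.16e-05). These were the 2 of 5 repair members that passed, where 22.0% of all genes rose, and 5 genes are too few to tell these shares apart. Ddb2 and Xpc, which recognise DNA lesions, stood at -0.02 ± 0.12 and -0.17 ± 0.08 on the log2 scale, and Rrm2b, the p53-inducible subunit of ribonucleotide reductase, at 0.10 ± 0.15. Ddb2 had 17.6, 19.7 and 17.1 CPM in Trim33-deficient libraries and 16.9, 20.3 and 17.9 CPM in control libraries. Xpc had 33.7, 34.3 and 32.8 CPM in Trim33-deficient libraries, against 35.8, 39.2 and 38.5 CPM in control libraries, and Rrm2b averaged 8.00 ± 1.12 and 7.48 ± 0.784 CPM (SD, n = 3 each). In Ddb2 and Rrm2b the groups overlapped, while the 3 Trim33-deficient values of Xpc lay below those of control without passing (adjusted p = 0.0766). The exons of Ddb2 overlap those of Acp2, and those of Rrm2b an antisense gene, on the other strand. Atr, Ei24 and Gadd45a also overlap noncoding genes on the other strand, so the counts of these 5 members carry the doubt given for Plk3.

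Of 5 genes of metabolism and redox defence 3 rose on day 2.5, where 22.0% of all genes rose. Ephx1, the microsomal epoxide hydrolase, had 9.38, 10.4 and 9.04 CPM in Trim33-deficient libraries and 3.34, 4.17 and 4.15 CPM in control libraries (log2 1.30 ± 0.18, adjusted p = 4.05e-05). Dcxr, a reductase of sugars and dicarbonyls, had 37.1, 36.0 and 35.0 CPM in Trim33-deficient libraries, against 25.1, 19.8 and 26.7 CPM in control libraries (log2 0.59 ± 0.10, adjusted p = 0.000312). The sestrins, inhibitors of mTORC1 signalling, did not move together. Sesn2 had 148, 154 and 163 CPM in Trim33-deficient libraries and 129, 91.6 and 107 CPM in control libraries (log2 0.50 ± 0.13, adjusted p = 0.00985). Sesn1 had 24.8, 26.2 and 25.9 CPM in Trim33-deficient libraries, against 26.8, 32.8 and 30.6 CPM in control libraries, and did not pass (log2 -0.23 ± 0.09, adjusted p = 0.0581), though it passed as lower under 5 of 21 alternatives. Fdxr, the mitochondrial ferredoxin reductase, averaged 16.4 ± 0.873 CPM in Trim33-deficient and 18.0 ± 1.62 CPM in control bodies (SD, n = 3 each) and did not pass (log2 -0.13 ± 0.09).

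**Figure D2:**
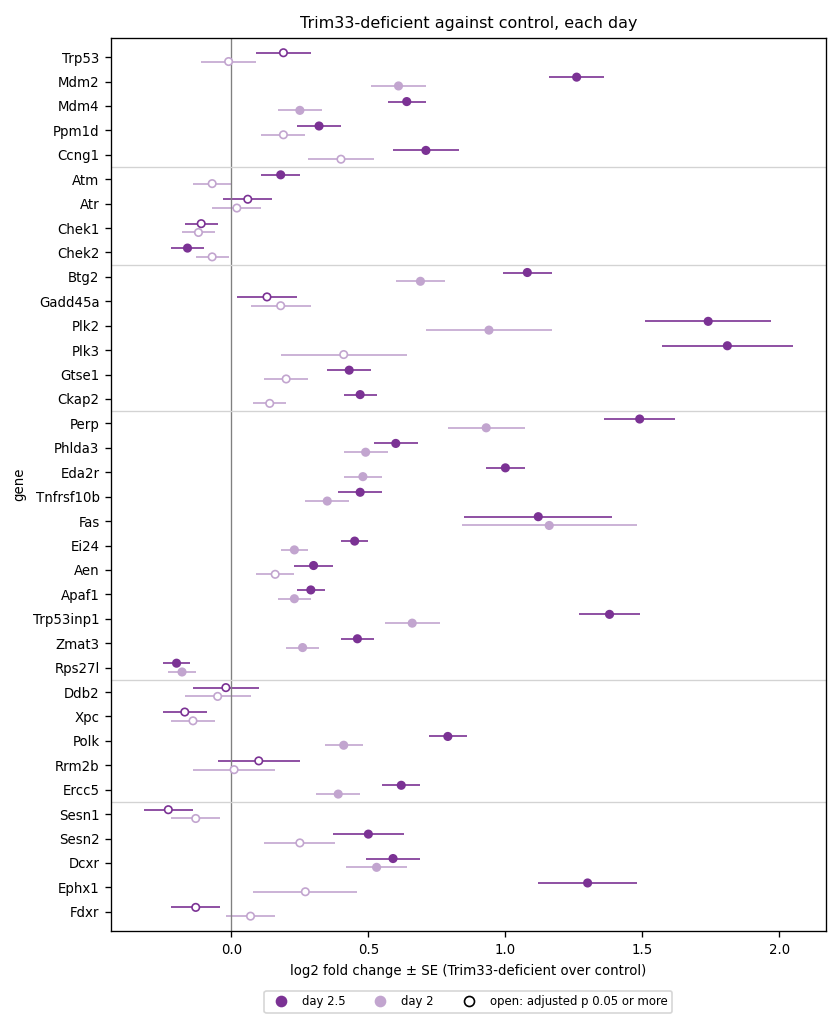
Log2 fold change of Trim33-deficient over control bodies with its SE for every member, on day 2.5 (dark) and day 2 (pale); filled points passed an adjusted p of 0.05. Grey lines separate the roles. On day 2.5, 25 members lie to the right and filled, and on day 2, 16.

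Promoter sequence was examined for the binding pattern of p53, a pair of decamers known as the p53 consensus element. Windows from 250 bases before to 50 bases after each start came from RefSeq (GRCm38.p6), for 29 of the 36 members. Zmat3, Ddb2, Perp, Trp53inp1, Tnfrsf10b, Rrm2b and Xpc had no entry. The search covered a pattern that reads the same on both strands, with at most 1 base between the decamers, at most 2 mismatches in the pair and an intact core C and G in each decamer. A pair was found in 4 of the 29 members (13.8%), against 218 of 27025 genes in the table (0.807%). Many members were listed because they are known direct targets of p53, so the higher share is no independent result. The 4 members are shown because their sequences stand beside different outcomes: Ccng1, Ckap2 and Gtse1 rose on day 2.5 and Rps27l fell. Capitals mark the pair, and Cdkn1a, the cell cycle inhibitor p21 and a standard p53 target outside the members, is given for comparison.
Ccng1 (chr11:40755422-40755521, minus strand): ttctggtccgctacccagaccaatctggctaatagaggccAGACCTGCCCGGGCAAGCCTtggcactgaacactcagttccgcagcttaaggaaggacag
Ckap2 (chr8:22185963-22186062, minus strand): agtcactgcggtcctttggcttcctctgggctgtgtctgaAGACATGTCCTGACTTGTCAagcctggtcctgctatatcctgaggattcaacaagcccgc
Gtse1 (chr15:85859905-85859965, plus strand): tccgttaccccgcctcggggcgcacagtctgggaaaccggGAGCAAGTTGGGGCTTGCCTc
Rps27l (chr9:66946256-66946355, plus strand): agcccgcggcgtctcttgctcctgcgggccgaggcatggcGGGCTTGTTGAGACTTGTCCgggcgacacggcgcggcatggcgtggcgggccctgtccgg
Cdkn1a (chr17:29090888-29090987, plus strand): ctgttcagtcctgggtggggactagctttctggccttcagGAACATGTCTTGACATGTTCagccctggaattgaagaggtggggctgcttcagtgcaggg

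The pair began 195 bases before the annotated start in Ccng1, 203 in Ckap2, 117 in Rps27l, 51 before a start of Cdkn1a and 1 before that of Gtse1. Ckap2 carried 2 mismatches and the other 4 carried 1. Gtse1 held an overlapping pair, with 1 mismatch, whose first base lies 9 bases after its start. A match is a description of letters, and p53 binding was not measured. Among the other p53 targets on the fixed list, a pair was found in 4 of 34 with an entry (11.8%). That list too was made of known targets, so the same limit holds for its share.

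Already on day 2, a day after the drug was given, more members were higher in Trim33-deficient bodies than lower. Of the 36 members 16 rose, 1 fell and 19 did not pass, where 5.94% of all genes rose and 3.90% fell, 9.84% in either direction. The median log2 fold change was 0.24, against 0.00 for all genes. In 20 members the 3 Trim33-deficient libraries lay above the 3 control libraries on day 2, and in 2 below them. Among all genes tested the shares on that day were 14.9% and 14.5%. Without control day 2 replicate 3 or without Trim33-deficient day 2 replicate 1 the number that rose was 10, and without all 3 libraries that stood apart it was 13. The 16 are all among the 25 that rose on day 2.5, and both days were fitted together with a shared estimate of spread. They include Fas, with the limit of the expression filter given above.

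Of the regulators, Mdm2 had 294, 255 and 281 CPM in Trim33-deficient libraries and 200.0, 152 and 193 CPM in control libraries on day 2 (log2 0.61 ± 0.10, adjusted p = 0.00352). Mdm4 had 102, 87.0 and 85.6 CPM in Trim33-deficient libraries, against 75.2, 75.2 and 79.6 CPM in control libraries. It passed narrowly (log2 0.25 ± 0.08, adjusted p = 0.0450) and lost its call under 13 of 21 alternatives. Ccng1 had 509, 545 and 584 CPM in Trim33-deficient libraries and 481, 343 and 416 CPM in control libraries, just outside the threshold although the groups did not overlap (log2 0.40 ± 0.12, adjusted p = 0.0505). Trp53 stood at 310.4, 291 and 296 CPM in Trim33-deficient libraries, against 330.0, 259 and 315 CPM in control libraries, with a log2 fold change of -0.01 ± 0.10. Ppm1d stood at 0.19 ± 0.08 and did not pass. Atm, Atr, Chek1 and Chek2 lay between -0.12 and 0.02 on the log2 scale, and none of the 4 passed by edgeR or DESeq2 or had an unadjusted p under 0.05.

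The death genes held most of the day 2 rises, 9 of 11, Fas included, with 1 that fell. Among all genes 5.94% rose and 3.90% fell on that day. Perp had 41.9, 33.9 and 32.3 CPM in Trim33-deficient libraries and 21.4, 15.8 and 19.0 CPM in control libraries (log2 0.93 ± 0.14, adjusted p = 0.00191). Trp53inp1 had 762, 719 and 766 CPM in Trim33-deficient libraries, against 541, 419 and 466 CPM in control libraries (log2 0.66 ± 0.10, adjusted p = 0.00345). Eda2r had 98.2, 92.5 and 89.6 CPM in Trim33-deficient libraries and 72.3, 59.9 and 68.0 CPM in control libraries (log2 0.48 ± 0.07, adjusted p = 0.000993). These 3 genes showed no overlap between the groups. Fas rose by 1.16 ± 0.32 at low levels, with 1.06, 1.62 and 1.29 CPM in Trim33-deficient libraries against 0.640, 0.464 and 0.708 CPM in control libraries, and lost its call under 8 of 20 alternatives. Phlda3, Tnfrsf10b, Zmat3, Ei24 and Apaf1 rose by 0.23 to 0.49, while Aen did not pass (0.16 ± 0.07). Rps27l, at 113, 119 and 118 CPM in Trim33-deficient libraries and 133, 131 and 134 CPM in control libraries, fell by 0.18 (adjusted p = 0.0298), a call lost under 8 of 21 alternatives.

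In the remaining roles 5 members rose on day 2, where 5.94% of all genes rose. Btg2 had 89.7, 82.3 and 86.0 CPM in Trim33-deficient libraries, against 55.6, 46.7 and 57.2 CPM in control libraries (log2 0.69 ± 0.09, adjusted p = 0.000673). Plk2 had 141, 109 and 129 CPM in Trim33-deficient libraries and 80.9, 45.7 and 70.5 CPM in control libraries (log2 0.94 ± 0.23, adjusted p = 0.0366), and lost its call under 11 of 21 alternatives. Polk, Ercc5 and Dcxr rose by 0.41 ± 0.07, 0.39 ± 0.08 and 0.53 ± 0.11. Plk3 and Ephx1, among the largest rises of day 2.5, did not pass on day 2. Plk3 averaged 62.5 ± 16.6 CPM in Trim33-deficient and 46.5 ± 9.70 CPM in control bodies (log2 0.41 ± 0.23), and its highest value, 81.7 CPM, lay in the library rich in Rn45s. Ephx1 averaged 5.96 ± 1.28 CPM in Trim33-deficient and 4.84 ± 1.10 CPM in control bodies (SD, n = 3 each, log2 0.27 ± 0.19). The other members of these roles, Gadd45a, Gtse1, Ckap2, Ddb2, Xpc, Rrm2b, Sesn1, Sesn2 and Fdxr, lay between -0.14 and 0.25.

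**Figure D3:**
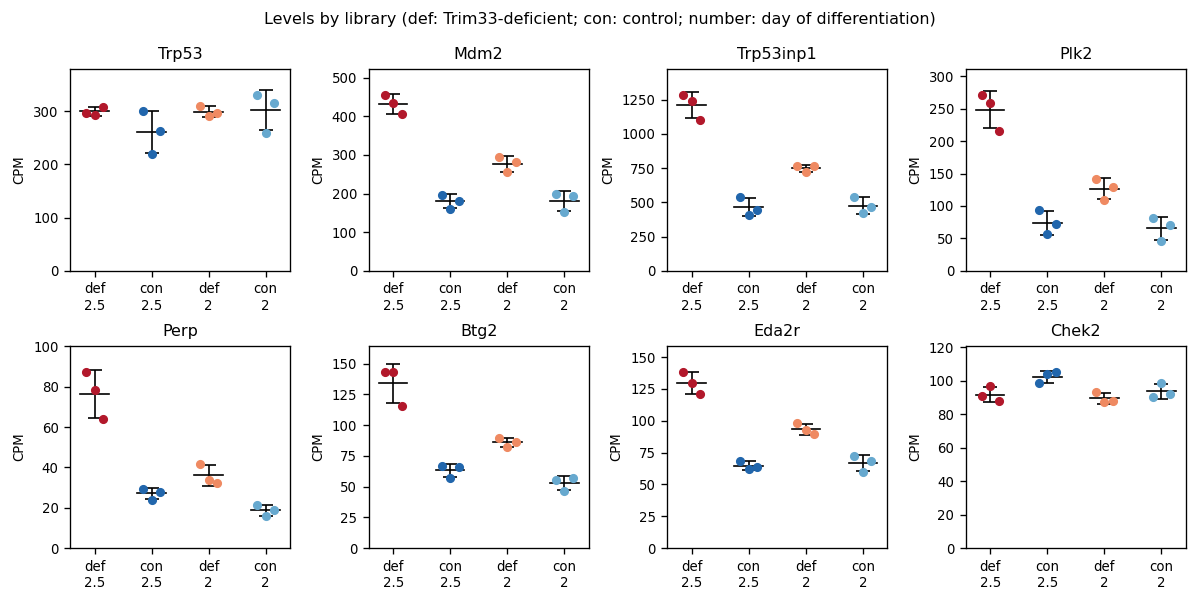
CPM of 8 members by library in 4 groups: Trim33-deficient (def) and control (con) on days 2.5 and 2. Points are libraries, bars the mean and SD of 3; every axis starts at 0. Mdm2, Trp53inp1, Plk2, Perp, Btg2 and Eda2r are highest in Trim33-deficient day 2.5 bodies and next highest in Trim33-deficient day 2 bodies, while Trp53 and Chek2 lie within narrow ranges.

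The effect of genotype was then compared between the days by the interaction term, the day 2.5 difference minus the day 2 difference. Of the 36 members 6 passed, all with a larger rise on day 2.5, where 2.77% of all genes passed in that direction and 4.01% in either. In the other direction 0 members passed by edgeR or by DESeq2, and 0 had an unadjusted p under 0.05. In the direction of a larger rise 15 had an unadjusted p under 0.05. No share of all genes was taken at this unadjusted threshold, so the 15 cannot be judged against a background. The interaction was 0.72 ± 0.15 for Trp53inp1 (adjusted p = 0.0229), 0.65 ± 0.14 for Mdm2 (adjusted p = 0.0252) and 0.52 ± 0.10 for Eda2r (adjusted p = 0.0136). Polk, Ckap2 and Ephx1 passed at 0.38 ± 0.10, 0.33 ± 0.09 and 1.04 ± 0.26. Mdm4 and Plk3 lay just outside the threshold at 0.39 ± 0.11 and 1.39 ± 0.33 (adjusted p = 0.0512 for both), and passed under 10 and 8 of 20 alternatives. Fas, Apaf1, Dcxr and Phlda3 had values of -0.04 to 0.11, none of them past the threshold.
The number of members that passed the interaction rested on single libraries. It was 0 without control day 2 replicate 3 or Trim33-deficient day 2 replicate 3, and 1 without Trim33-deficient day 2 replicate 2, control day 2.5 replicate 3 or Trim33-deficient day 2.5 replicate 1 or 2. It was 3 without control day 2 replicate 1 and 11 without control day 2 replicate 2. Without all 3 libraries that stood apart it was 13.

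Between the days, many members rose in Trim33-deficient bodies and few in control bodies. In Trim33-deficient bodies 17 members rose between day 2 and day 2.5, 2 fell and 17 did not pass, where 9.09% of all genes rose and 6.93% fell. In control bodies 4 rose, 1 fell and 31 did not pass, where 8.20% of all genes rose and 7.91% fell. The median log2 fold change of the members over time was 0.28 in Trim33-deficient and -0.02 in control bodies, against 0.00 for all genes in both. The difference between these 2 time courses is the interaction given above, and the time and genotype comparisons share libraries. In 22 members all 3 Trim33-deficient day 2.5 libraries lay above the 3 of day 2 and in 3 below them, as in 19.3% and 19.4% of all genes. The count of 17 was 11 without Trim33-deficient day 2 replicate 2. The count of 4 was 1 without control day 2 replicate 3 and 2 without control day 2 replicate 2 or control day 2.5 replicate 3.

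Mdm2 lay between 405 and 455 CPM on day 2.5 and between 255 and 294 CPM on day 2 in Trim33-deficient bodies. In control bodies it averaged 180.0 ± 17.9 CPM on day 2.5 and 182 ± 25.7 CPM on day 2 (SD, n = 3 each). Its change over time was 0.64 ± 0.10 in Trim33-deficient bodies (adjusted p = 0.000842) and -0.01 ± 0.10 in control bodies. Trp53inp1 showed the same order of levels, 1208 ± 94.4 and 749 ± 25.9 CPM in Trim33-deficient bodies on day 2.5 and day 2, against 465 ± 65.5 and 475 ± 61.6 CPM in control bodies. Mdm2 and Trp53inp1 in control bodies thus differed between the days by less than the SD of either group.

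Perp, Apaf1, Ercc5 and Dcxr rose over time in both genotypes. Ercc5 rose by 0.65 ± 0.08 in Trim33-deficient bodies (adjusted p = 2.98e-05) and by 0.42 ± 0.08 in control bodies (adjusted p = 0.00222). Perp rose by 1.10 ± 0.13 in Trim33-deficient and 0.54 ± 0.15 in control bodies, where its call was lost under 4 of 21 alternatives. Apaf1 rose by 0.28 ± 0.05 and 0.23 ± 0.06. Btg2 rose by 0.64 ± 0.09 in Trim33-deficient bodies (adjusted p = 0.000261), and stood at 0.25 ± 0.10 in control bodies without passing.
Gadd45a fell over time in both. It had 28.9, 30.1 and 30.3 CPM on day 2.5 and 52.6, 43.0 and 37.8 CPM on day 2 in Trim33-deficient bodies, and 24.9, 27.1 and 29.9 CPM on day 2.5 against 38.3, 35.5 and 42.6 CPM on day 2 in control bodies. It fell by 0.57 on the log2 scale in Trim33-deficient bodies (adjusted p = 0.00228), and in control bodies it fell by 0.51 (adjusted p = 0.00555). Sesn1 fell by 0.30 in Trim33-deficient bodies (adjusted p = 0.0328), a call lost under 5 of 21 alternatives, and did not pass in control bodies (-0.21 ± 0.09). Plk3 stood at 0.75 ± 0.22 over time in Trim33-deficient bodies and at -0.65 ± 0.25 in control bodies, with neither past the threshold (adjusted p = 0.0510 and 0.110).

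**Figure D4:**
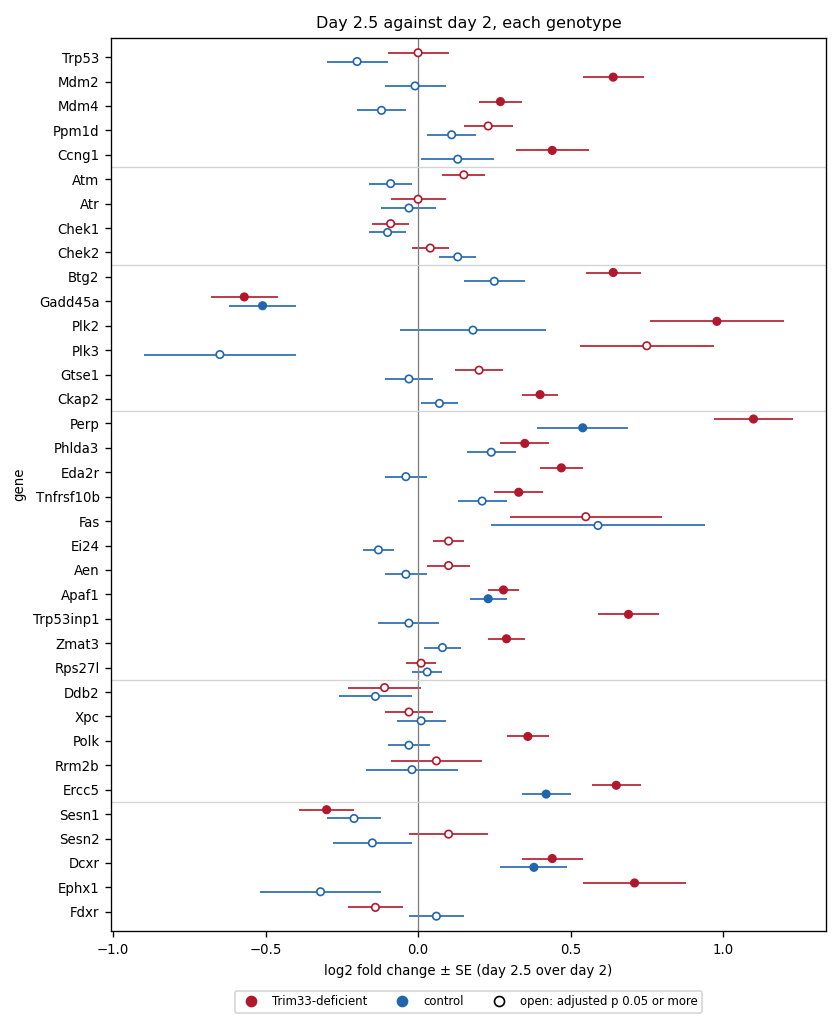
Log2 fold change of day 2.5 over day 2 with its SE for every member, in Trim33-deficient bodies (red) and control bodies (blue); filled points passed an adjusted p of 0.05. Of the 36 members 17 are filled and to the right in Trim33-deficient bodies, against 4 in control bodies.

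Other p53 targets, from a list fixed with earlier results of these data known, also rose on day 2.5 in most cases. Of 34 tested, 24 rose (70.6%, against 22.0% of all genes) and the other 10 did not pass, with a median log2 fold change of 0.64. On day 2, 16 rose (47.1%, against 5.94% of all genes) and 18 did not pass, with a median of 0.37. Cdkn1a had 183, 179 and 152 CPM in Trim33-deficient libraries and 84.8, 55.7 and 70.8 CPM in control libraries on day 2.5 (log2 1.28 ± 0.15, adjusted p = 8.33e-05), and rose by 0.72 ± 0.15 on day 2. The death genes Bax and Bbc3 rose on day 2.5 by 0.44 ± 0.07 and 0.46 ± 0.07, while Pmaip1, another gene of that class, averaged 369.6 ± 15.4 CPM in Trim33-deficient and 384 ± 12.8 CPM in control bodies (log2 -0.06 ± 0.05). The smallest adjusted p values on this list belonged to Pmm1, a phosphomannomutase (log2 1.09 ± 0.09), Dgka, a diacylglycerol kinase (0.74 ± 0.07), and Tmem19, a membrane protein (0.71 ± 0.09).

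Regulators of p53 outside the members lay near the background on day 2.5. Of 23, 7 rose (30.4%) and 6 fell (26.1%) on day 2.5, where 22.0% and 20.7% of all genes did, with a median of -0.10. Cdkn2a, which encodes the Mdm2 inhibitor Arf and the cell cycle inhibitor p16, averaged 12.4 ± 1.53 CPM in Trim33-deficient and 5.93 ± 0.834 CPM in control bodies (log2 1.04 ± 0.15, adjusted p = 6.86e-05). Counts per gene symbol do not separate those 2 products. Daxx, a histone chaperone that binds Mdm2, rose by 0.40 ± 0.08, and Setd8, a methyltransferase that modifies histone H4 and p53, fell by 0.35. On day 2, 0 of the 23 rose and 3 fell (13%), where 5.94% and 3.90% of all genes did. Those that fell were Hipk2, Setd8 and Npm1. Cdkn2a stood at 0.31 ± 0.15 on day 2 and did not pass.

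Damage response genes outside the members fell more often than they rose on day 2.5. Of 40, 4 rose (10%) and 13 fell (32.5%) on that day, where 22.0% and 20.7% of all genes did. Their median was -0.07. Nbn, of the complex that senses broken DNA ends, averaged 30.3 ± 1.46 CPM in Trim33-deficient and 43.4 ± 1.31 CPM in control bodies (fell by 0.52 on the log2 scale, adjusted p = 1.97e-05). Xrcc6, the Ku70 subunit of end joining, averaged 103 ± 4.30 and 132 ± 6.77 CPM (fell by 0.37, adjusted p = 5.52e-05). Ercc4, an endonuclease of excision repair, rose by 0.91 ± 0.09 (adjusted p = 2.84e-06). On day 2, 1 of the 40 rose (2.5%) and 3 fell (7.5%), where 5.94% and 3.90% of all genes did.

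**Figure D5:**
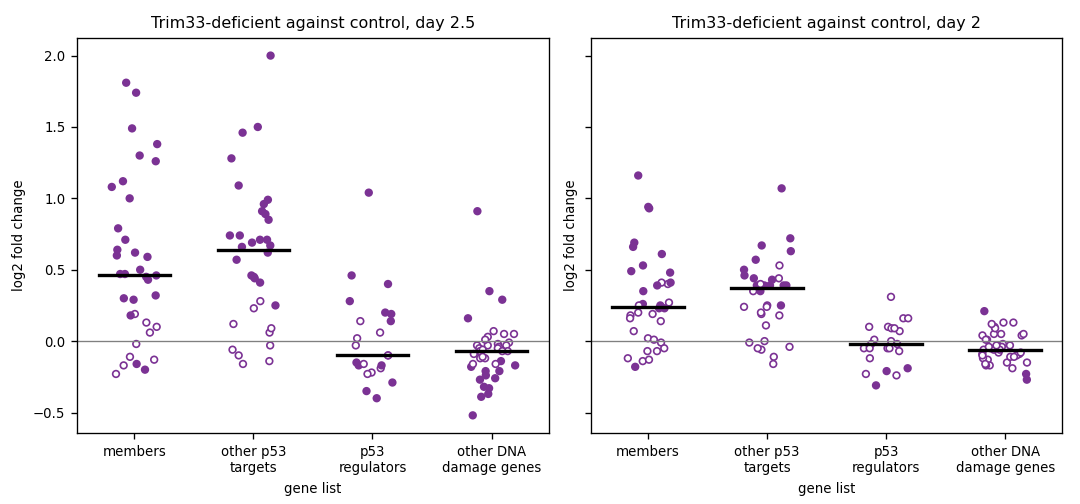
Log2 fold change of Trim33-deficient over control bodies for each tested gene of 4 lists, on day 2.5 (left) and day 2 (right). Filled points passed an adjusted p of 0.05 and black bars are medians, which on day 2.5 are 0.47 for the members, 0.64 for other p53 targets, -0.10 for p53 regulators and -0.07 for other DNA damage genes.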

How the data were processed

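RNA of 12 libraries was analysed, 3 in each of 4 groups taken from the labels. The authors deposited unnormalized read counts by gene symbol; the submitters' processing notes name STAR, HTSeq, DESeq and mm9, with versions, annotation and strand setting not given. Summary entries that name no gene were left out: no feature held 55.9 to 60.5% of a library's counts and ambiguous reads 0.144 to 0.189%. In Trim33-deficient day 2.5 replicate 1, 27 gene names turned into dates were restored by row position.

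The test was edgeR 4.0.16 (R 4.3.3): TMM factors, filterByExpr, a quasi-likelihood model (robust) with 1 mean per group over the 12 libraries, leaving 8 residual degrees of freedom, and Benjamini-Hochberg adjustment over the 14356 genes tested. Standard errors are the log2 fold change over the root of F. P-values measure the spread between libraries, and the labels speak of independent pairs without saying how the cultures were separate. Replicate pairs differed by more than sampling noise. CPM values use TMM-scaled totals; 3 counts equal 0.178 to 0.318 CPM, for counting error only. Overlapping genes were read from GENCODE M21 (GRCm38), not the counting annotation.

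Members, roles and lists were chosen with earlier results of these data known. Named are the kinases, Trp53, Mdm2 and Mdm4, up to 5 members per role by smallest adjusted p and up to 3 genes per further list, besides Trim33, Cdkn1a, Bax, Bbc3 and Pmaip1; other members were added for completeness. Alternatives were other factors and filters, DESeq2 1.42.0, models of the compared libraries alone, a replicate block and fits without libraries. The procedure was tested on simulated data.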

Additional observations from a re-analysis of the deposited data

Results flagged for a closer look

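In 6 members the difference between Trim33-deficient and control bodies changed between day 2 and day 2.5 by the interaction term of the edgeR fit. The interaction, day 2.5 minus day 2 on the log2 scale, was 0.65 for Mdm2, 0.33 for Ckap2 and 0.52 for Eda2r. It was 0.72 for Trp53inp1, 0.38 for Polk and 1.04 for Ephx1. Adjusted p was 0.0252, 0.0487, 0.0136, 0.0229, 0.0434 and 0.0377 in the same order. Each of the 6 calls was lost under some alternative: Eda2r under 2 of 20, Mdm2 and Trp53inp1 under 7, Ephx1 under 8, and Ckap2 and Polk under 11. The sign was the same in every alternative run on these 6.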

How the results depend on the processing

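On day 2.5 25 of the 27 called members kept their call under every alternative run, and the exceptions were Atm and Chek2. On day 2 10 of 17 kept it, over time 12 of 19 in Trim33-deficient and 2 of 5 in control bodies, and for the interaction 0 of 6. No called member changed sign. The number that fell on day 2.5, 2 as reported, was 4 with upper-quartile factors, 1 with only the compared libraries and 1 without both libraries rich in Rn45s. On day 2 the number that fell, 1, was 0 with only the compared libraries, without both libraries rich in Rn45s and without all 3 that stood apart. The number that passed the interaction, 6, was 10 with the replicate block and 13 without all 3 libraries. In control bodies over time the number that fell, 1, was 3 with the replicate block and 4 without all 3. The causes were not tested.

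Leaving out 1 library at a time, the number that rose ranged from 24 to 26 on day 2.5 and from 10 to 17 on day 2. The number that fell ranged from 1 to 3 and from 0 to 1. The interaction gave 0 to 11. Over time 11 to 20 rose and 1 to 2 fell in Trim33-deficient bodies, and 1 to 6 rose and 1 to 3 fell in control bodies. Deviations from the group means of same-numbered libraries had correlations of -0.079 to 0.172 between genotypes. Between days they were 0.182, -0.018 and 0.088 in Trim33-deficient and 0.365, 0.451 and 0.032 in control bodies. Control replicates 1 and 2 thus shared deviations between days, and replicate 3 hardly did. Control replicate 2 also had raised hypoxia genes on both days (0.44 on day 2.5 and 0.69 on day 2, log2). It was lowest in 21 and 26 of 36 members on these days. Which libraries form the pairs is not stated, so the main model did not use the numbers as pairs. Its comparison of control bodies over time therefore takes no account of these shared deviations. With the replicate block Trp53 passed on day 2.5 (0.21, adjusted p = 0.0209) and in control bodies over time (-0.21, adjusted p = 0.0418). In 1 of 6 cases a Trim33-deficient library correlated best with the control of its own number.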
